A study of Homo sapiens with 6 samples.

Results

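The integrated stress response is a cellular program in which several stress signals meet at the translation factor eIF2, and ATF4 is the transcription factor that carries it to the nucleus. The genes described here are ATF4 and 9 of its known downstream genes, namely ATF5, DDIT3, DDIT4, TRIB3, CHAC1, SESN2, ASNS, PHGDH and PSAT1. They were chosen by name, with earlier results of these data known, as 10 of the 25545 genes in the deposited expression table. All 10 have a row in that table, and 9 passed the filter used for testing (a mean TPM of at least 1 over all libraries). ASNS did not pass and was not tested.

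The cells were BT-549, a line established from a triple-negative breast cancer (TNBC). RNA-seq was performed on 3 libraries of cells that received a control siRNA (CsiRNA) and 3 libraries of cells that received an siRNA against NEAT1 (NEAT1siRNA), the long noncoding RNA on which nuclear paraspeckles are built. RNA was isolated 48 h after transfection from cells cultured in triplicate, in medium with serum and insulin. Both groups are 1 parental line, the sample titles of both also carry a tet- prefix whose construct they do not name, and the study's methods describe a single siRNA against NEAT1. The comparison asked how silencing NEAT1 in these cells altered gene expression.

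In this response, stress-sensing kinases phosphorylate the alpha subunit of eIF2, which lowers protein synthesis in general while ATF4 mRNA is translated more. ATF4 protein, often paired with other factors of the basic leucine zipper class, then activates genes of amino acid synthesis, amino acid import and tRNA charging, together with genes that slow growth or favour cell death when the stress persists. ATF4 protein is thus set to a large extent by translation, which RNA levels do not show. In tumor cells, serine synthesis from glucose (PHGDH, PSAT1 and PSPH) is a well-known branch of the program.

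ATF4 and its partners bind a composite site that is commonly written TGATGNAA. RefSeq promoter windows (GRCh38.p14, 250 bases before to 50 bases after a start site) were found for all 10 genes and searched on both strands for these letters. A match was present in windows of 2 of the 10 genes, ASNS and CHAC1, whereas 4.46% of all 27305 genes and 3.62% of all 35116 windows held one. The stretches are shown because they are the only matches among the members. They run 5′ to 3′ on the strand of the gene, with the matching 8 bases in capitals and 10 bases on either side. The first lies at chr7:97872459-97872486 on the minus strand, where the match begins 68 bases before the ASNS start site, and the second lies at chr15:40953252-40953279 on the plus strand, where the match begins 209 bases before the CHAC1 start site and reads TGATGCAA on the opposite strand.
ASNS: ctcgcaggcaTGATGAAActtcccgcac
CHAC1: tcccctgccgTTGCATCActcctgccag
In the GENCODE annotation each stretch also lies within an exon of 1 transcript of its gene that starts further upstream. The absence of a match elsewhere says only that these letters are not within the windows searched.

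Values are in TPM (reads per gene scaled by gene length and by library), so that levels can be compared between genes. Fold changes are differences of log2(TPM + 1), NEAT1siRNA minus CsiRNA, with the standard error (SE) and a Benjamini-Hochberg adjusted p from limma over all 10721 genes tested. A gene is called where the adjusted p is under 0.05. Recovered reads per library ran from 17246575 to 20343890 with CsiRNA and from 15787040 to 20178843 with NEAT1siRNA. In each library 4 short noncoding RNAs (RN7SK, RN7SL1, RN7SL2 and RPPH1) took 64.4% to 68.1% of the TPM. The 5 mesenchymal markers examined (VIM, CDH2, FN1, ZEB1 and SPARC) were expressed, with a summed TPM of 1490 to 1684 with CsiRNA and 1364 to 1585 with NEAT1siRNA, and 2 of them were called lower without overlap between the groups (CDH2, -0.34, adjusted p = 0.019, and FN1, -0.47, adjusted p = 0.0012). Of 5 epithelial markers (EPCAM, CDH1, KRT8, KRT18 and KRT19), 4 were under 1 TPM, and the sum, mostly KRT18, was 1.24 to 1.83 with CsiRNA and 1.84 to 2.47 with NEAT1siRNA. ESR1 was listed at 0 in the receptor list, and the summed TPM of ESR1, PGR and ERBB2 was 5.76 to 6.37. Of 5 markers of other cell types (PTPRC, CD3E, CD68, PECAM1 and COL17A1), 4 were under 1 TPM, and the sum, nearly all CD68, was 24.6 to 29.2 with CsiRNA and 23.2 to 24.3 with NEAT1siRNA. The part of these transcripts in the results was not tested.

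NEAT1 itself was at 13.4, 7.68 and 10.8 TPM in CsiRNA replicates 1 to 3 and at 4.36, 2.96 and 2.73 TPM in NEAT1siRNA replicates 1 to 3. After silencing, NEAT1 averaged 31.5% of its control level, and it fell by 1.41 on the log2 scale (SE 0.14, adjusted p = 1.21e-07, n = 3 libraries per group). In bulk RNA, fewer cells with a transcript cannot be told apart from less of it per cell, here and in every value that follows.

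Of the 9 members tested, 4 rose after NEAT1 silencing (PHGDH, CHAC1, ATF5 and DDIT4), none was called lower by limma, and ATF4, DDIT3, TRIB3, SESN2 and PSAT1 did not pass the threshold. At an unadjusted p under 0.05, 6 were higher and 0 lower, and voom on recovered reads called 5 higher and 0 lower. Over all 10721 genes voom called 1247 higher and 1259 lower, and the share at an unadjusted p under 0.05 was not counted. At the reported setting, limma called 1498 or 14.0% of all 10721 genes. Those called higher were 535 or 4.99% of the genes tested, and those called lower 963 or 8.98%. All 9 members had a positive fold change, with a median of 0.25, while 39.3% of all tested genes did and their median was -0.04. In 5 members (ATF4, DDIT4, CHAC1, PHGDH and PSAT1) each NEAT1siRNA library was above each CsiRNA library, against 11.0% of all tested genes, and in 0 members was each one below, against 19.3%. The rises were small, the largest being 1.39-fold in mean TPM for CHAC1 and 1.31-fold for PHGDH.

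The number called depended on single libraries. It was 1 (PHGDH) without CsiRNA replicate 1, without CsiRNA replicate 2 or without NEAT1siRNA replicate 3, 2 without NEAT1siRNA replicate 1, 3 without CsiRNA replicate 3 and 4 without NEAT1siRNA replicate 2. Over all genes the same fits called 784, 1288 and 1413 without CsiRNA replicates 1, 2 and 3 in turn. They called 1473, 2076 and 832 without NEAT1siRNA replicates 1, 2 and 3. With each library centred on its median, 5 members were called, and over all genes the split of higher and lower calls moved to 1158 and 954. The median difference of the 9 members from their CsiRNA mean was 0.16, 0.27 and 0.17 on the log2(TPM + 1) scale in NEAT1siRNA replicates 1 to 3, and 0.05, -0.03 and 0.01 in the CsiRNA replicates. The medians of the 3 silenced libraries were thus all above those of the controls.

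**Figure D1:**
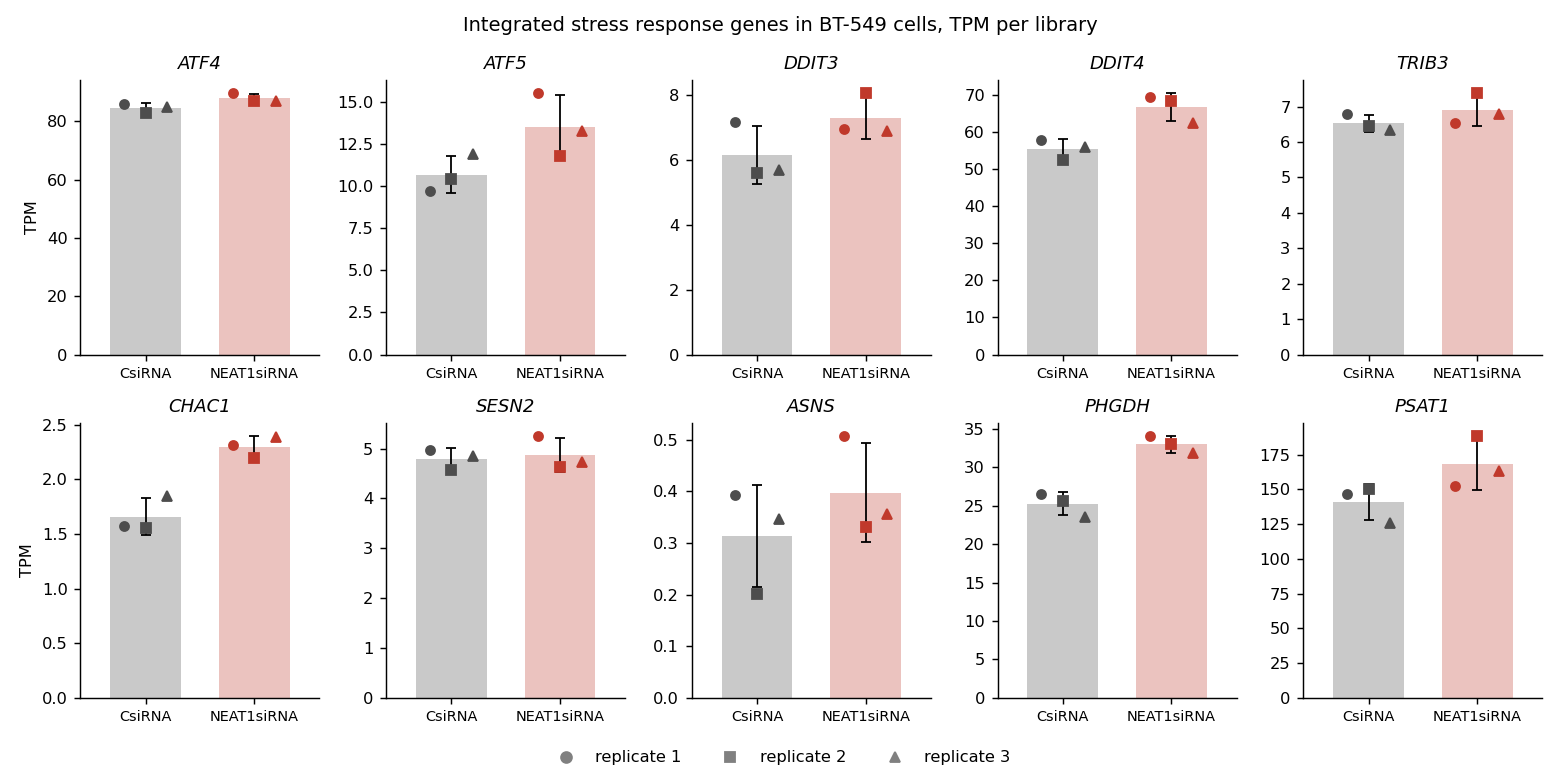
TPM of the 10 integrated stress response genes in BT-549 cells, with 1 panel per gene and its own linear axis from 0; points are the libraries, bars the mean and error bars the SD (n = 3 per group). PHGDH, CHAC1, DDIT4, ATF4 and PSAT1 have all NEAT1siRNA points above the CsiRNA points, and the step is smallest in ATF4 (84.6 to 87.9 TPM).

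The members spanned a wide range of levels in control cells. PSAT1 was the most abundant at 141 ± 13.0 TPM (SD, n = 3), followed by ATF4 at 84.6 ± 1.58, DDIT4 at 55.3 ± 2.75, PHGDH at 25.2 ± 1.50 and ATF5 at 10.7 ± 1.11. TRIB3 (6.52 ± 0.229) and DDIT3 (6.16 ± 0.887) came next and overlapped between libraries, so their order is not resolved, and in NEAT1siRNA cells it was the other way round. SESN2 was at 4.80 ± 0.209, CHAC1 at 1.66 ± 0.168 and ASNS at 0.313 ± 0.0991 TPM. The ranges of every other pair of neighbors were apart in CsiRNA cells, and the rest of the order was the same in NEAT1siRNA cells.

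Within serine synthesis, PHGDH and PSPH rose and PSAT1 did not pass the threshold. PHGDH encodes phosphoglycerate dehydrogenase, which catalyses the first step from glycolysis towards serine. PHGDH was at 26.5, 25.7 and 23.6 TPM in CsiRNA replicates 1 to 3 and at 34.0, 33.1 and 31.8 TPM in NEAT1siRNA replicates 1 to 3. The lowest silenced library was above the highest control library. PHGDH rose by 0.37 (SE 0.09, adjusted p = 0.0061), and it was called in 18 of 18 alternative settings, including each library left out in turn.

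PSAT1, the aminotransferase of the next step, was at 147, 150 and 126 TPM with CsiRNA and at 152, 188 and 163 TPM with NEAT1siRNA. The groups did not overlap, but the highest control and the lowest silenced library were only 149.9 and 152.1 TPM. The fold change was 0.25 (SE 0.09, 95% interval 0.05 to 0.45, adjusted p = 0.080), which did not pass the threshold. It was called in 8 of 18 alternatives, among them voom on recovered reads (adjusted p = 0.0058) and the fit without NEAT1siRNA replicate 1 (adjusted p = 0.030).

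PSPH, the phosphatase that completes the pathway, stands in the list of other amino acid synthesis genes. PSPH was at 16.8, 15.6 and 14.5 TPM with CsiRNA and at 18.3, 21.5 and 18.5 TPM with NEAT1siRNA, with no overlap. It rose by 0.30 (SE 0.10, adjusted p = 0.038) and was called in 12 of 18 alternatives. The adjusted p was 0.098 without CsiRNA replicate 2, 0.13 without CsiRNA replicate 3, 0.084 without NEAT1siRNA replicate 2 and 0.071 without NEAT1siRNA replicate 3.

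ASNS encodes asparagine synthetase, a classical ATF4 target that makes asparagine from aspartate and glutamine. ASNS was at 0.392, 0.202 and 0.346 TPM with CsiRNA and at 0.507, 0.330 and 0.355 TPM with NEAT1siRNA, which corresponds to 23, 12 and 25 recovered reads and to 32, 22 and 21 recovered reads. The ranges overlapped, and at an average of 22.5 reads per library no difference was detectable. Without the filter on TPM its fold change was 0.09 (adjusted p = 0.57). The row of the pseudogene ASNSP1 had a higher mean of 2.28 TPM, so the division of reads between both rows is uncertain.

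**Figure D2:**
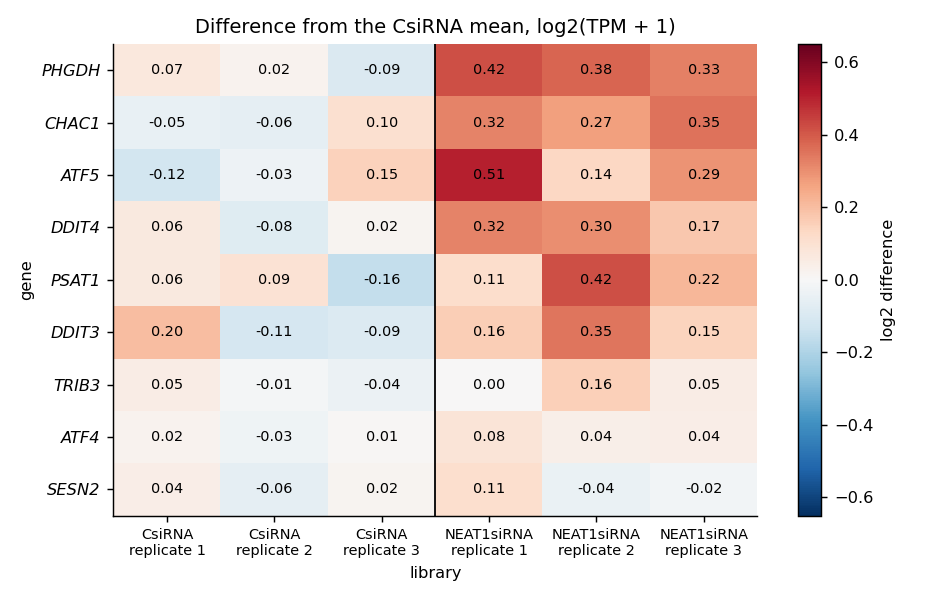
Difference of each library from the CsiRNA mean of that gene on the log2(TPM + 1) scale for the 9 members tested, with genes in order of fold change and libraries in columns. PHGDH was between 0.33 and 0.42 in all 3 NEAT1siRNA libraries, while ATF5 ranged from 0.14 to 0.51 and SESN2 lay on both sides of 0.

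Among the transcription factors of the response, ATF4 is the central activator. ATF4 was at 85.9, 82.8 and 85.0 TPM in CsiRNA replicates 1 to 3 and at 89.7, 86.8 and 87.1 TPM in NEAT1siRNA replicates 1 to 3. Each silenced library was above each control library, but by little. The fold change of 0.05 (SE 0.08, 95% interval -0.12 to 0.23, adjusted p = 0.73) did not pass the threshold, and ATF4 was called in 0 of 18 alternatives.

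ATF5, a related factor that is likewise favored in translation under stress, was at 9.73, 10.4 and 11.9 TPM with CsiRNA and at 15.5, 11.8 and 13.3 TPM with NEAT1siRNA. The groups overlapped, since CsiRNA replicate 3 was slightly above NEAT1siRNA replicate 2. ATF5 rose by 0.31 (SE 0.10, adjusted p = 0.0456), and the call held in 8 of 18 alternatives. The adjusted p was 0.21 without CsiRNA replicate 1, 0.10 without CsiRNA replicate 2, 0.22 without NEAT1siRNA replicate 1 and 0.11 without NEAT1siRNA replicate 3, but 0.001 without NEAT1siRNA replicate 2. With median centring it was 0.0535. The gene overlaps NUP62 on the opposite strand, which had a mean of 35.0 TPM and a fold change of -0.14 (adjusted p = 0.34). The libraries are described as stranded, but the strand setting of the counting is not given in the sources used here.

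DDIT3 encodes CHOP, a factor associated with cell death when stress is prolonged. DDIT3 was at 7.18, 5.60 and 5.70 TPM with CsiRNA and at 6.97, 8.07 and 6.88 TPM with NEAT1siRNA. CsiRNA replicate 1 stood apart from the other controls and lay within the silenced range. The fold change was 0.22 (SE 0.10, 95% interval 0.01 to 0.43, adjusted p = 0.16), and it passed the threshold in 4 of 18 alternatives. DDIT3 overlaps the genes listed as MARS and MBD6 on the opposite strand, whose fold changes were -0.08 (adjusted p = 0.58) and 0.17 (adjusted p = 0.34).

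Of the effectors of the response, CHAC1 and DDIT4 rose, and SESN2 and TRIB3 did not pass the threshold. CHAC1 encodes an enzyme that degrades glutathione. CHAC1 was at 1.57, 1.55 and 1.85 TPM with CsiRNA and at 2.32, 2.19 and 2.39 TPM with NEAT1siRNA, and the groups did not overlap. It rose by 0.31 (SE 0.10, adjusted p = 0.031) from an average of 72.0 recovered reads per library. The log2(TPM + 1) scale understates the change of so low a gene, and the fold change was 0.45 with a pseudocount of 0.1 and 0.51 with voom on recovered reads. The call held in 11 of the 17 alternatives that tested it, but in only 2 of the 6 with a library left out. The adjusted p was 0.11 without CsiRNA replicate 1, 0.10 without CsiRNA replicate 2, 0.061 without NEAT1siRNA replicate 1 and 0.11 without NEAT1siRNA replicate 3.

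DDIT4 (REDD1) restrains mTORC1 signaling. DDIT4 was at 57.7, 52.3 and 55.9 TPM with CsiRNA and at 69.4, 68.4 and 62.4 TPM with NEAT1siRNA, again without overlap. It rose by 0.27 (SE 0.09, adjusted p = 0.0456). The call held in 10 of 18 alternatives. Of the 6 that left out a library it held only without NEAT1siRNA replicate 2. The adjusted p was 0.089, 0.24 and 0.055 without CsiRNA replicates 1, 2 and 3 in turn, 0.14 without NEAT1siRNA replicate 1 and 0.064 without NEAT1siRNA replicate 3.

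SESN2, which also limits mTORC1 and acts as a leucine sensor, was at 4.97, 4.56 and 4.86 TPM with CsiRNA and at 5.25, 4.63 and 4.73 TPM with NEAT1siRNA. The groups overlapped almost fully. The fold change was 0.02 (SE 0.09, 95% interval -0.18 to 0.21, adjusted p = 0.93), and its sign turned without CsiRNA replicate 2 or without NEAT1siRNA replicate 1.

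TRIB3, a pseudokinase that feeds back on ATF4 and CHOP, was at 6.78, 6.46 and 6.33 TPM with CsiRNA and at 6.53, 7.39 and 6.78 TPM with NEAT1siRNA. These ranges overlapped as well. The fold change was 0.07 (SE 0.09, 95% interval -0.12 to 0.26, adjusted p = 0.68), and neither TRIB3 nor SESN2 was called in any alternative that tested it.

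**Figure D3:**
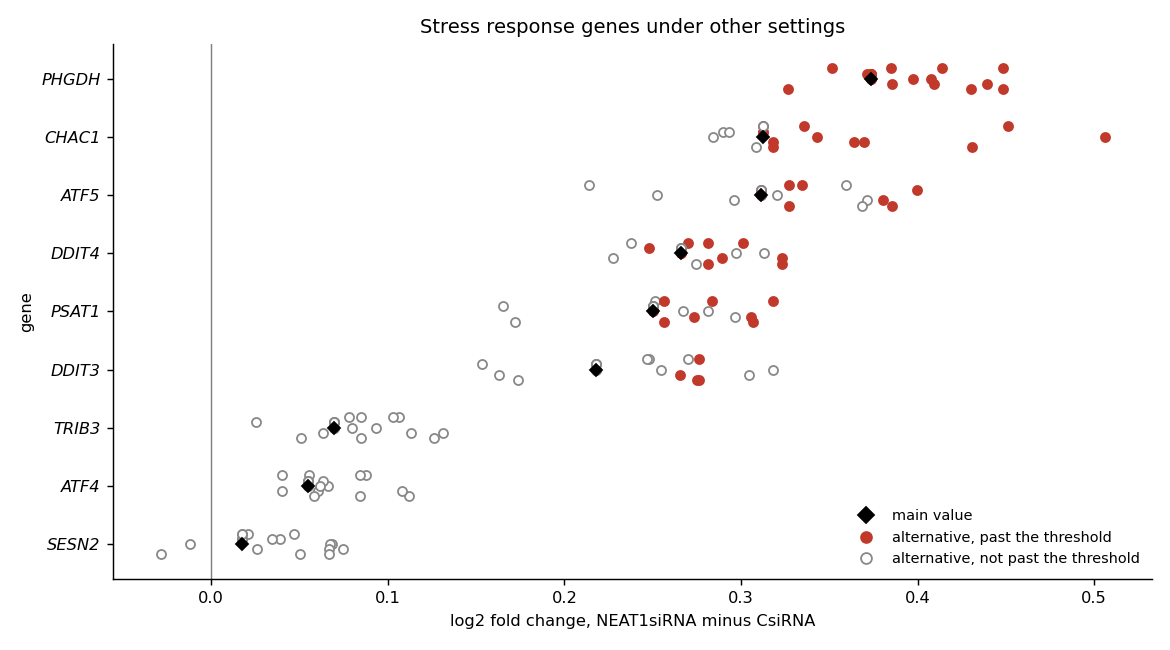
Fold change of each tested member on the log2 scale as reported (diamond) and under the alternative settings (circles, filled where the adjusted p passed the threshold of that setting). PHGDH is filled throughout, from 0.33 to 0.45, whereas TRIB3, ATF4 and SESN2 are never filled.

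Paralogues of the members were examined beside them. Of the 6 (TRIB1, TRIB2, CHAC2, SESN1, SESN3 and DDIT4L), 4 were tested. Of these 4, 1 was called higher and 0 lower, against 4.99% and 8.98% of all tested genes. TRIB1, a pseudokinase related to TRIB3, was at 10.5, 9.63 and 9.31 TPM with CsiRNA and at 14.6, 16.2 and 13.8 TPM with NEAT1siRNA. The groups did not overlap, and TRIB1 rose by 0.55 (SE 0.09, adjusted p = 0.00024).

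Upstream of ATF4, the share of genes called at the reported setting was near that of all genes tested. The list held 20 genes for eIF2α kinases and their activators, eIF2 and eIF2B subunits, and phosphatase subunits and inhibitors that set eIF2α phosphorylation. It mixes genes that raise and lower this phosphorylation, so its median has no single direction for the response. Of the 20, 1 was higher and 2 were lower, or 15% against 14.0% of all tested genes. The median of the 20 was -0.16 against -0.04 for all tested genes, or -0.10 against 0.01 with median centring. A negative sign was seen in 65%, against 60.7% of all tested genes. Each NEAT1siRNA library was below each CsiRNA library in 7 of them and above in 1, against 19.3% and 11.0% of all tested genes. At an unadjusted p under 0.05, 1 was higher and 8 were lower, but the share of all tested genes at that cut was not counted. Voom on recovered reads called 2 higher and 4 lower, against 1247 and 1259 of all 10721 genes. With the GC and length trend removed 4 were higher and 6 lower, against 1655 and 1717 of 10424 genes. The 4 kinases had fold changes of 0.10 for EIF2AK1 (HRI, which senses heme and mitochondrial stress, adjusted p = 0.52), 0.11 for EIF2AK2 (PKR, which senses double-stranded RNA, adjusted p = 0.48), -0.25 for EIF2AK3 (PERK, which senses unfolded protein in the endoplasmic reticulum, adjusted p = 0.098) and -0.19 for EIF2AK4 (GCN2, which senses amino acid shortage, adjusted p = 0.20). All NEAT1siRNA values of EIF2AK3 and EIF2AK4 were below the controls, and those of EIF2AK1 and EIF2AK2 overlapped with them. EIF2AK1 and EIF2AK2 were each called higher in 2 of 18 alternatives, and EIF2AK3 and EIF2AK4 in none.

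GCN1, the activator of GCN2, was at 16.0, 13.0 and 13.4 TPM with CsiRNA and at 10.8, 9.36 and 9.60 TPM with NEAT1siRNA. GCN1 fell by 0.47 (SE 0.10, adjusted p = 0.0020) with no overlap. Leaving out any library kept this call. EIF2B4, a subunit of the exchange factor that phosphorylated eIF2 blocks, was at 11.8, 10.0 and 10.7 TPM with CsiRNA and at 9.16, 7.79 and 8.43 TPM with NEAT1siRNA, and it fell by 0.33 (SE 0.10, adjusted p = 0.025). OMA1, the mitochondrial protease that relays mitochondrial stress towards HRI, was at 8.05, 8.75 and 7.74 TPM with CsiRNA and at 10.2, 11.2 and 9.79 TPM with NEAT1siRNA. OMA1 rose by 0.31 (SE 0.09, adjusted p = 0.028). The call of EIF2B4 was lost without CsiRNA replicate 1 (adjusted p = 0.14) or NEAT1siRNA replicate 3 (0.079), and that of OMA1 without CsiRNA replicate 1 (0.089), CsiRNA replicate 3 (0.099) or NEAT1siRNA replicate 2 (0.055).

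Among other genes linked to ATF4 or, for part of the stress factors, to CHOP, some rose and some fell. In 4 lists of amino acid synthesis, amino acid transport, tRNA synthetases and other stress factors, 48 of 52 genes were tested, of which 6 (12.5%) were higher and 3 (6.25%) were lower, against 4.99% and 8.98% of all tested genes. Their median fold change was -0.00058 against -0.04 for all tested genes, with 24 (50%) positive against 39.3%. The counts depended on the scaling. Under median centring 11 were higher and 4 lower with a median of 0.06, against 1158 and 954 of all 10721 genes and their median of 0.01. With voom on recovered reads 13 were higher and 4 lower with a median of 0.05, against 1247 and 1259 of all genes and their median of 0.0021.

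Of the 10 tested genes of amino acid synthesis, 2 were higher and 0 lower, against 4.99% and 8.98% of all tested genes. Besides PSPH this was CTH, which makes cysteine from cystathionine, at 1.33, 1.19 and 1.20 TPM with CsiRNA and at 1.88, 1.89 and 2.01 TPM with NEAT1siRNA. CTH rose by 0.39 (SE 0.10, adjusted p = 0.0069). It is as low as CHAC1, with an average of 68.0 recovered reads, and its fold change was 0.60 with a pseudocount of 0.1 and 0.68 with voom. Of the 8 transporters, SLC7A11 alone was called, against 14.0% of all tested genes. SLC7A11, which imports cystine, was at 10.3, 8.55 and 8.02 TPM with CsiRNA and at 11.9, 14.8 and 11.4 TPM with NEAT1siRNA, and it rose by 0.46 (SE 0.11, adjusted p = 0.0046).

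The 13 genes of tRNA charging and export had a median of -0.05 against -0.04 for all tested genes. With median centring both medians were 0.01. Of the 13, 1 was higher, against 4.99% of all tested genes. This was WARS (tryptophanyl-tRNA synthetase, which interferon also induces), at 80.4, 76.4 and 73.6 TPM with CsiRNA and at 92.1, 99.4 and 89.9 TPM with NEAT1siRNA. WARS rose by 0.28 (SE 0.09, adjusted p = 0.030). With a library left out the call held only without NEAT1siRNA replicate 2, and the adjusted p otherwise ran from 0.052 (without NEAT1siRNA replicate 1) to 0.11 (without CsiRNA replicate 2). The fold changes of the other 12 did not pass the threshold.

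Of the 17 tested stress factors, 2 (11.8%) were higher and 3 (17.6%) lower, against 4.99% and 8.98% of all tested genes. With voom on recovered reads or with median centring 6 were higher and 3 lower. Over all 10721 genes voom called 1247 higher and 1259 lower, and median centring 1158 and 954. With the GC and length trend removed 6 stress factors were higher and 4 lower, against 1655 and 1717 of 10424 genes. NUPR1, a stress-induced chromatin protein, was at 14.5, 13.7 and 16.6 TPM with CsiRNA and at 25.0, 20.7 and 24.1 TPM with NEAT1siRNA, and it rose by 0.61 (SE 0.10, adjusted p = 0.00013). KLHL24, a ubiquitin ligase adaptor, was at 3.78, 3.55 and 2.89 TPM with CsiRNA and at 4.37, 5.83 and 4.51 TPM with NEAT1siRNA, and it rose by 0.42 (SE 0.11, adjusted p = 0.0099). Both were without overlap between the groups, and the adjusted p of KLHL24 was 0.055 without CsiRNA replicate 3.

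The stress factors that fell were TNFRSF10B, GDF15 and GADD45A. TNFRSF10B, the TRAIL receptor DR5, was at 19.9, 19.1 and 17.7 TPM with CsiRNA and at 9.48, 9.68 and 8.96 TPM with NEAT1siRNA. It fell by 0.94 (SE 0.09, adjusted p = 9.42e-08) to a mean of 49.6% of the control. GDF15, a secreted stress cytokine, was at 25.5, 23.1 and 22.6 TPM with CsiRNA and at 15.3, 17.2 and 14.9 TPM with NEAT1siRNA, and it fell by 0.56 (SE 0.09, adjusted p = 0.00019). GADD45A, which acts in growth arrest, was at 13.8, 11.1 and 11.5 TPM with CsiRNA and at 7.89, 8.93 and 7.88 TPM with NEAT1siRNA, and it fell by 0.51 (SE 0.10, adjusted p = 0.0010). All 3 falls were without overlap, in the opposite direction to the members that rose.

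The branches of the unfolded protein response that work through ATF6 and XBP1 were examined by 18 genes of chaperones and their regulators. None was called in either direction at the reported setting. A negative fold change was seen in 15 (83.3%), against 60.7% of all tested genes, and the median of the 18 was -0.11 against -0.04. With median centring it was -0.05 against 0.01 for all genes, and with voom -0.06 against 0.0021. At an unadjusted p under 0.05, 0 were higher and 2 lower, and here too the share of all tested genes was not counted. Voom on recovered reads called 1 higher and 1 lower, against 1247 and 1259 of all 10721 genes. Median centring also called 1 higher and 1 lower, against 1158 and 954, and so did quantile normalization, against 1082 and 1109. Without the 4 short noncoding RNAs 1 was higher and 1 lower, against 940 and 1119 of 12252 genes. With the GC and length trend removed 1 was higher and 3 lower, against 1655 and 1717 of 10424 genes. HSPA5 (BiP), the main chaperone of the endoplasmic reticulum, had a fold change of -0.24 (SE 0.09, adjusted p = 0.056).

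**Figure D4:**
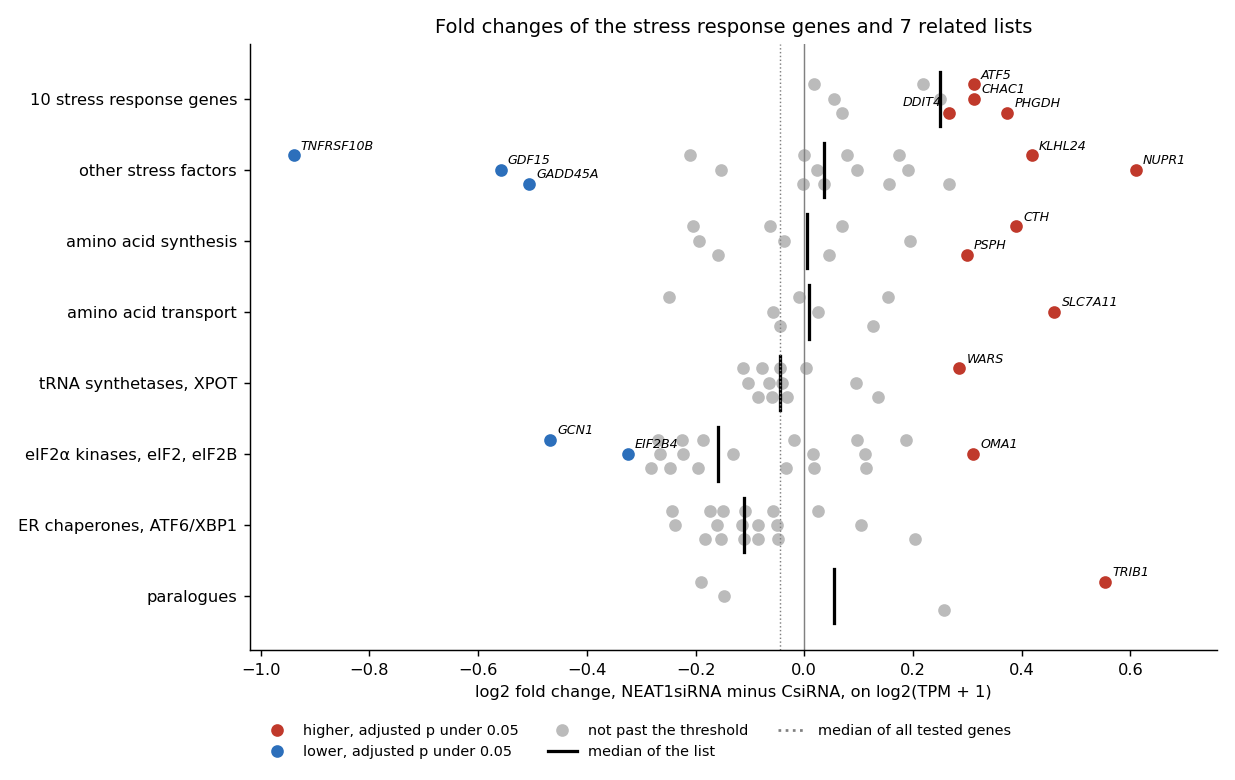
Fold change on the log2(TPM + 1) scale of each tested gene, for the stress response genes (top row) and 7 related lists in rows; red and blue points passed the threshold, black bars are list medians and the dotted line is the median of all tested genes. The members lie to the right of 0 with a median of 0.25, while the 17 other stress factors spread from -0.94 to 0.61.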

How the data were processed

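Total RNA from 6 BT-549 cultures was sequenced by the authors, aligned with STAR to GRCh38 and compared with DESeq2. The authors describe stranded mRNA libraries. Why 4 short noncoding RNAs took 64.4% to 68.1% of the TPM in such libraries was not tested. The authors deposited TPM per gene and library. Their comparison table gives a mean normalized count, which is a size-factor scaled signal that the authors averaged over all libraries and which served here only to recover reads, and fold changes and p-values, which were not used. With a tolerance of 0.05, 99.9% of recovered values were whole where the mean normalized count was under 5 and 12.6% where it was 500 or more, so reads of abundant genes are approximate.

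The log2(TPM + 1) values of genes averaging at least 1 TPM were compared with limma 3.58.1 (lmFit and eBayes with trend) in R 4.3.3, without a block. Adjustment was by Benjamini-Hochberg over all genes tested. An exact two-sided permutation test of 3 against 3 libraries cannot go below p = 0.1 and was not used. The p-values cover the spread between cultures of 1 line. Named are the 10 members, NEAT1, the 4 eIF2α kinases and, for each related list, up to 4 called genes per direction by size. HSPA5 was named after its values were seen. The members and lists were chosen with earlier results of these data known. The alternatives were another pseudocount (0.1), other filters (none, or an average of at least 5 TPM), quantile normalization, median centring, removal of 4 abundant short noncoding RNAs, eBayes without its trend, a block on the replicate number, voom on recovered reads, removal of a GC and length trend (splines with 4 degrees of freedom) without and with the block, an adjusted p under 0.01, and each library left out in turn. Symbols, overlaps and GC content came from GENCODE. The procedure was tested on simulated data, where unchanged genes made up a larger part of the calls than the threshold states, so calls close to the threshold are the least certain.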

Additional observations from a re-analysis of the deposited data

How the results depend on the processing

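Of 481 fold changes of 27 named genes under 18 alternatives, 412 kept their direction and side of the threshold, 51 lost the call, 16 gained it and 2 turned sign. Both were SESN2, at -0.0118 without CsiRNA replicate 2 and -0.0286 without NEAT1siRNA replicate 1 (highest 0.0469). The 4 members called became 1 with no filter on TPM and 1 at an adjusted p under 0.01, and 1 to 4 with a library left out. They became 3 at an average of at least 5 TPM or with eBayes without its trend. With quantile normalization, median centring or voom they became 5, and with the GC and length trend removed 6, without or with the block. The 1498 genes called became 505 with no filter, 2506 with voom, 3372 with the GC and length trend removed, 3349 with the replicate block as well, 719 at an adjusted p under 0.01, and 784 (without CsiRNA replicate 1) to 2076 (without NEAT1siRNA replicate 2) with a library left out. The 13 calls among 90 genes of the related lists became 6 with no filter, 22 with quantile normalization, 24 with median centring, 24 without the 4 short noncoding RNAs, 27 with voom, 34 with the GC and length trend removed and 34 with the block as well, and 10 to 19 with a library left out. The cause of these shifts was not tested, except that an adjusted p under 0.01 is stricter by construction and no filter adds genes to the adjustment (18531 tested). The correlation of TPM deviations with GC content (Spearman) differed between libraries of the same group, from -0.33 to 0.46 with CsiRNA and from -0.71 to 0.66 with NEAT1siRNA. Deviations of same-numbered libraries correlated at -0.03, 0.25 and -0.11. Whether the numbers pair the samples cannot be decided from this, because the deviations also carry the GC trends of single libraries. The replicate block gave 1640 genes, 18 genes of the lists and 4 members, with PSAT1 (adjusted p = 0.0469) in and ATF5 (adjusted p = 0.0502) out. Among the members, ASNS had the fewest reads, at 22.5 per library.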
